A study of Homo sapiens with 54 samples.

Results

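The genes described here are the nuclear-encoded subunits of the respiratory chain and of ATP synthase. They were taken by name from the gene tables of 4 cancer cell lines, with name patterns for the NDUF, SDH, UQCR, COX and ATP5 families. The patterns matched 131 of 55906 gene names, and 53 of these were pseudogenes and were left out, which leaves 78 genes. Of these, 36 belong to complex I, 4 to complex II, 9 to complex III, 11 to complex IV and 16 to complex V (ATP synthase), and 2 (*ATP5S* and *ATP5SL*) carry an ATP5 name without being counted to a complex here. *NDUFA4* has a complex I name and was counted to complex IV, in which its product is found. The tables use older symbols, so *ATP5A1* and *ATP5B* are the alpha and beta subunits of ATP synthase, and the current symbol of *ATP5J* is *ATP5PF*. In every line 76 of the 78 genes passed the filter on low values, and the other two, *ATP5L2* and *UQCRHL*, had control means of at most 0.314 TPM (a length-corrected share of a library's transcripts) and were not tested.

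The study asked what the loss of the splicing factor *TRA2A*, of its paralog *TRA2B* or of both does to the transcriptome of lines that differ in their need for *TRA2A*. A549 and NCI-H23, human lung cancer lines, stably carried Zim3-dCas9, which pairs a cutting-dead Cas9 with a repressor domain, and received guides for control loci (Control KD), *TRA2A*, *TRA2B* or both genes (*TRA2A/B* DKD) for 5 days. LN229 and LN319, human glioma lines, received Cas9 with control, *TRA2A* or *TRA2B* guides for 7 days while expressing luciferase cDNA (Luc), or Cas9 with control or *TRA2A* guides while expressing *TRA2B* cDNA (TRA2B-OE). Each of the 18 groups had 3 libraries of polyadenylated RNA, 54 in all, from transduced populations rather than single clones.

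The respiratory chain passes electrons from NADH (complex I) and succinate (complex II) through complex III to oxygen at complex IV, and ATP synthase uses the proton gradient that complexes I, III and IV build. A small set of core subunits is encoded in mitochondrial DNA, and all other subunits, with every subunit of complex II, are encoded in the nucleus, translated in the cytosol and imported. The nuclear genes are transcribed in every cell type from promoters in which sites of NRF1, of ETS factors such as GABP and of YY1 are well known. The RNA level of a subunit is not the level of the assembled complex, and only RNA was measured.

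Values in TPM are shares of a library, so the number of reads behind a value is unknown, and precision is given as the spread of 3 libraries. Nothing in the labels says that replicate libraries came from separate cultures, so p-values measure the spread between these libraries, which may be technical. In bulk samples, less RNA per cell and fewer cells that express a gene cannot be told apart. The targeted genes were lower on average in every knockdown and knockout: *TRA2A* fell from 75.1 to 7.18 TPM in A549 *TRA2A* KD and from 104.6 to 6.84 TPM in NCI-H23 *TRA2A* KD, and *TRA2B* fell from 137 to 13.3 and from 92.2 to 9.75 TPM in *TRA2B* KD. In the DKD both were low, at 10.4 and 22.4 TPM in A549 and at 21.5 and 23.3 TPM in NCI-H23. Cas9 cuts need not remove the RNA, and the knockouts left more of it: *TRA2B* went from 222 to 147 TPM in LN229 *TRA2B* KO and from 87.6 to 30.8 TPM in LN319 *TRA2B* KO. *TRA2A* went from 109 to 68.8 TPM in LN229 *TRA2A* KO, from 107 to 35.5 TPM in LN319 *TRA2A* KO and from 91.1 to 48.1 TPM in LN319 TRA2B-OE *TRA2A* KO. The smallest change was in LN229 TRA2B-OE *TRA2A* KO, where *TRA2A* read 74.8 to 84.3 TPM in the control and 65.4 to 75.6 TPM in the knockout, with overlap. TRA2B-OE raised *TRA2B* to 832 TPM in LN229 and 765 TPM in LN319. The keratins KRT8 and KRT18 were high in both lung lines (445 to 3246 TPM). The lung markers NKX2-1 and SFTPB were at most 1.06 TPM there. Other epithelial genes were low in NCI-H23, with KRT7 at 1.46 to 4.49 TPM and at most 0.604 TPM of KRT19. Its EPCAM and CDH1 stayed at or under 1.74 and 2.47 TPM. A549 had abundant KRT7 (3252 to 3963 TPM), less KRT19 (4.72 to 26.7 TPM) and little EPCAM (0.849 to 3.77 TPM). Of the glial markers, LN319 held at most 3.77 TPM of GFAP and 0.14 TPM of OLIG2, whereas it expressed TNC and VIM, and of the lung epithelium list it held CDH1 at 116 to 150 TPM (at most 25.2 TPM in the lung lines) and NKX2-1 at 5.68 to 20.2 TPM, which go against its label. HBB reached 20.2 to 23.1 TPM in the glioma lines. Replicate 3 of A549 Control KD stood apart. Its respiratory chain genes summed to 9041 TPM against 14380 and 16199 TPM in the other Control KD libraries, its members lay a median of 0.957 log2 units lower than in those, and 1864 genes with transcripts under 1000 bases lay lower by a median of 0.888. Counts and medians of the members in the A549 comparisons are therefore given with and without it, while control levels, single genes and other lists of A549 include it.

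Of the 78 genes, 62 had a RefSeq promoter window (GRCh38.p14, from 250 bases before to 50 bases after the gene's start). The NRF1 motif GCGCATGCG, searched on both strands here and below, was present in 10 of the 62 windows (16.1%) and in 2.1% of 27305 promoters. The ETS motif CCGGAAGT was in 14.5% of the members' windows against 4.44% of all, and the YY1 motif AAGATGGCG in 12.9% against 1.85%. TATAAA, by contrast, was in 9.68% against 12%. On the other strand the letters are CGCATGCGC for NRF1, which overlaps its own match, and ACTTCCGG for the ETS motif. Below stands 1 subunit for each complex, from I to V in order, whose window held at least 1 of these motifs. Each is the run of 150 bases before the gene's start, 5′ to 3′ on the gene's strand, with the motif matches in capitals, and all 5 genes were among those lower in LN319 *TRA2B* KO (described further on), *COX5B* with a call that was lost under 9 of 17 alternatives. The windows are chr19:1383757-1383906 (plus strand), chr11:112086723-112086872 (plus), chr1:46303548-46303697 (plus), chr2:97645912-97646061 (plus) and chr21:25735055-25735204 (minus).
NDUFS7: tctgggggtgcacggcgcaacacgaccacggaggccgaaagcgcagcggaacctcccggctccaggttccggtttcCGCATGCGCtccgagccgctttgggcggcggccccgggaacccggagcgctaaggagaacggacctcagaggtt
SDHD: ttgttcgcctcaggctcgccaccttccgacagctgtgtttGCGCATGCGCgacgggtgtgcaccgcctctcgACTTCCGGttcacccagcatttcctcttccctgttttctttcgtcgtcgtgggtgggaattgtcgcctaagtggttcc
UQCRH: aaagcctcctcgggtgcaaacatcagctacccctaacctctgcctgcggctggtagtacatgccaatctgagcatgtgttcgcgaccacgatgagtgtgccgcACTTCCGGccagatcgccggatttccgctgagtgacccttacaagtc
COX5B: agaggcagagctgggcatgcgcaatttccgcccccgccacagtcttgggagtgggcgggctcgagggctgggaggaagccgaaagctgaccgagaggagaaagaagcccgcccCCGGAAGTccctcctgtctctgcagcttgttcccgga
ATP5J: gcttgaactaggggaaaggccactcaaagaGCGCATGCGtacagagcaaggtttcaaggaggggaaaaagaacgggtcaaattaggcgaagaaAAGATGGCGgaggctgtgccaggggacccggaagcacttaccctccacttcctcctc

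*NDUFS7* and *ATP5J* carry the NRF1 letters, *SDHD* the NRF1 and ETS letters together, *UQCRH* and *COX5B* the ETS letters, and *ATP5J* also the YY1 letters. A further ETS match of *COX5B* runs past the printed stretch. Among the 51 members with a window that were lower in LN319 *TRA2B* KO, the shares were 15.7% for NRF1, 17.6% for ETS, 15.7% for YY1 and 7.84% for TATAAA, against 16.1, 14.5, 12.9 and 9.68% of all 62. These are matches of letters and not measured sites.

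In the control groups the respiratory chain genes took up 0.973 to 2.11% of all TPM, with mean sums of 13200 (A549), 18400 (NCI-H23), 19100 (LN229) and 17100 TPM (LN319). The 4 tables were normalized separately, so levels of different lines are set side by side with no test. The highest members were small subunits of ATP synthase and complex IV together with *ATP5B*, the catalytic beta subunit. *ATP5J2* (585 ± 215 TPM, SD, n = 3) and *ATP5B* (543 ± 70.1) led in A549. There *ATP5J2* was the higher of the pair in replicates 1 and 2 and *ATP5B* in replicate 3 (349.9 against 463.3 TPM). *ATP5B* (931 ± 67.0) and *COX6A1* (893 ± 187) led in NCI-H23, where *ATP5B* was the higher in replicate 1 and *COX6A1* in replicates 2 and 3. *COX8A*, which encodes a small complex IV subunit, led in LN229 at 1317 ± 113 TPM, followed by *ATP5J2* at 877 ± 64.0, and *COX6A1* led in LN319 at 1167 ± 87.6 TPM, followed by *COX8A* at 902 ± 25. The lowest tested member was *COX6B1*, with means of 3.17 to 9.04 TPM, a level far under that of other complex IV subunits except *COX7B* (14.3 to 19.5 TPM).

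The medians of the complexes followed a similar order in the 4 lines. In NCI-H23, the median was 506 TPM for complex IV, 260 for complex V, 160 for complex I, 136 for complex III and 119 for complex II, and in LN319 the values were 360, 246, 119, 124 and 122 TPM. Within a complex the levels spread widely, for example from 18.9 to 639 TPM over the 36 complex I genes of LN319. A few members differed strongly between lines. *NDUFA10*, an accessory complex I subunit (chr2:239892450-240025743, minus strand, GRCh38), had 115 TPM in A549, 113 in NCI-H23 and 94.3 in LN229, but 24.1 in LN319. *SDHA*, the flavoprotein of complex II, had 29.2 TPM in NCI-H23 against 92.5 to 127 TPM elsewhere. *UQCRB* of complex III varied least, from 148 to 169 TPM. *SDHA* and *UQCRFS1*, the Rieske protein of complex III, have pseudogenes that took up 17.5% (A549) to 29.6% (NCI-H23) for *SDHA* and 20.0% (A549) to 37.3% (LN319) for *UQCRFS1* of the TPM of the gene and its copies, so their values are uncertain. The same holds for *COX6B1* (4.96% in NCI-H23 to 29.9% in LN229), for *COX5B* in LN319 (12.4%) and for *COX7B* in LN229 (11.9%).

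**Figure D1:**
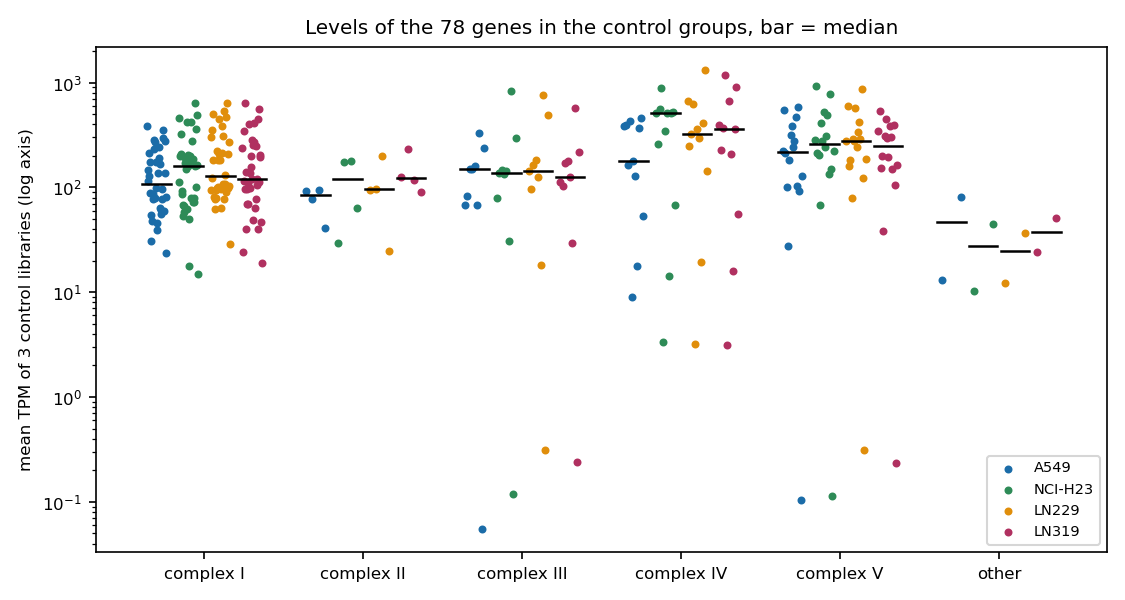
Mean TPM of each of the 78 genes in the 3 control libraries of each line, by complex, on a log axis, with a bar at the median. The 2 points under 1 TPM in each line are *ATP5L2* and *UQCRHL*, and complexes IV and V had the highest medians in all 4 lines, with V (218 TPM) above IV (180 TPM) in A549 and IV above V in the others.

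Across the 14 comparisons of a perturbation with its control, the respiratory chain genes moved as a body in LN319 *TRA2B* KO and in part in NCI-H23 *TRA2A/B* DKD. Elsewhere members were seldom called. A gene was called at an adjusted p under 0.05 in limma (Benjamini-Hochberg over all genes of the comparison). Counts at an unadjusted p under 0.05, where given, cover the members only. The percentages of all genes near them are at the adjusted threshold and are not their background. LN319 *TRA2B* KO had 61 of 76 members lower, or 80.3%, against 24.0% of all 19303 genes tested, and no member higher, against 18.6% of all genes. NCI-H23 *TRA2A/B* DKD had 25 members lower (32.9%, against 23.2% of all 16293 genes) and 2 higher (2.63%, against 20.0%). A549 *TRA2A/B* DKD had 3 members lower (3.95%, against 16.3% of 16405 genes) and none higher (against 14.3%). The median log2 fold changes of the members were -0.53, -0.23 and 0.10, and those of all genes 0.02, 0.02 and 0.03. In the other 11 comparisons at most 2 members were called.

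**Figure D2:**
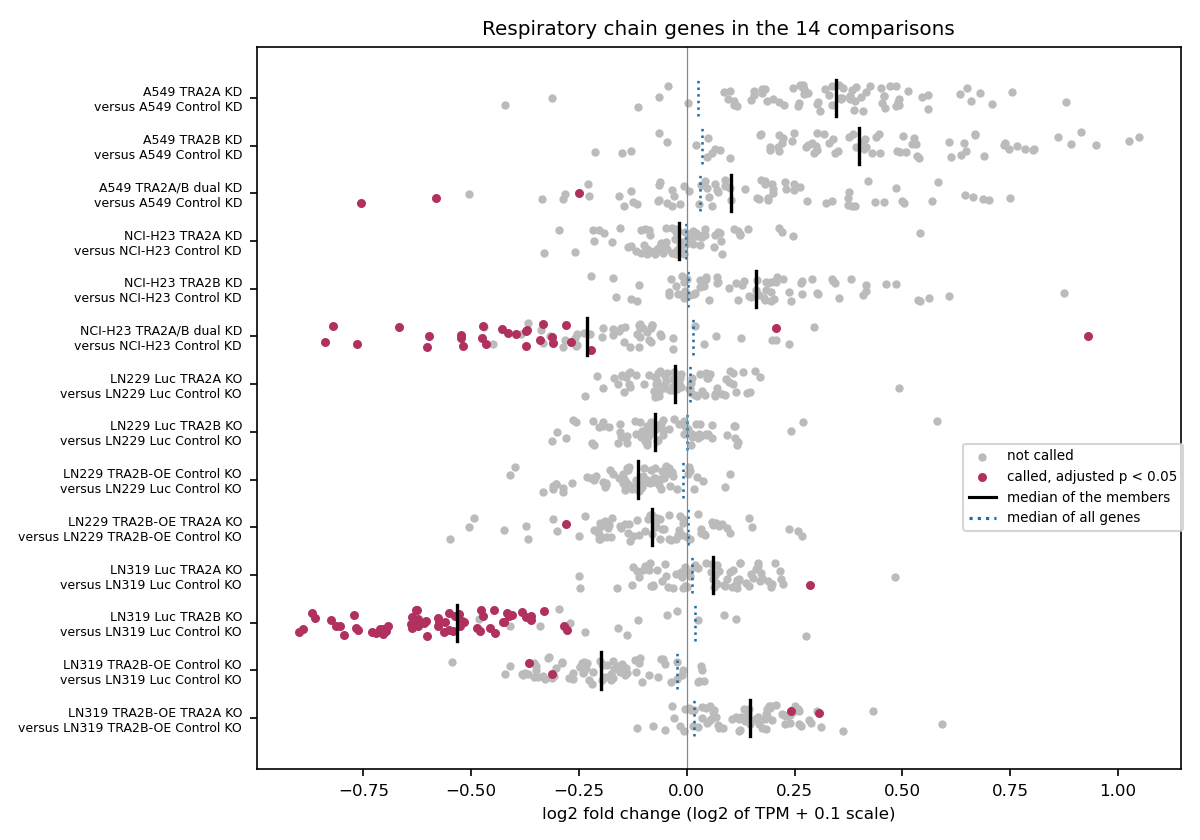
The log2 fold change of the 76 tested genes in each of the 14 comparisons, each point being 1 gene, with called genes in red, the members' median as a black bar and the median of all genes as a dotted line. The 61 called genes of LN319 *TRA2B* KO lie left of 0 with a median of -0.53, whereas in the A549 single knockdowns the points lie to the right (medians 0.35 and 0.40) with no gene called.

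In LN319 *TRA2B* KO, subunits of all 5 complexes were lower. The genes were called in 30 of 36 tested in complex I (median -0.56), 3 of 4 in complex II (-0.53), 7 of 8 in complex III (-0.60), 6 of 11 in complex IV (-0.34) and 14 of 15 in complex V (-0.53), plus *ATP5SL*. Falls of this size correspond to a loss of 17.5 to 46.4% in called genes. In TPM, the 3 *TRA2B* KO libraries lay below all 3 Control KO libraries for 62 of the 76 members. Among these were 60 of the 61 called genes (all except *UQCR11*). Overlap was not counted over all genes, so these counts have no background share beside them. The members' summed share of a library went from 1.70 to 1.83% of TPM in Control KO to 1.37 to 1.42% in *TRA2B* KO.

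*NDUFA5*, an accessory subunit in the matrix arm of complex I (chr7:123536997-123557904, minus strand, GRCh38), had the smallest p of all members. Its level was 37.5, 39.1 and 42.6 TPM in Control KO and 23.4, 22.7 and 22.95 TPM in *TRA2B* KO. The groups were far apart, and the log2 fold change was -0.89 ± 0.09 (SE; adjusted p = 3.19e-05). *NDUFC2*, a membrane arm subunit, went from 263.1, 256.3 and 225.1 TPM to 138.5, 147.2 and 152.4 TPM, with all *TRA2B* KO libraries below the controls (-0.87 ± 0.12, adjusted p = 1.85e-04). Other membrane arm subunits, *NDUFB8*, *NDUFB2* and *NDUFB5*, fell by 0.58, 0.64 and 0.72 log2 units, with adjusted p of 1.34e-04, 1.40e-04 and 1.56e-04. The catalytic core was affected less evenly. *NDUFS1*, the largest iron-sulfur subunit, was called (72.0, 71.6 and 86.4 TPM against 66.6, 61.9 and 62.2, -0.37 ± 0.11, adjusted p = 0.0131). *NDUFV1*, which binds NADH, was not called and read 194.7 to 212.8 TPM in Control KO and 229.7 to 232.5 TPM in *TRA2B* KO. Its *TRA2B* KO libraries were thus the higher ones in TPM, while the scaled log2 fold change was 0.09 ± 0.05 (adjusted p = 0.185).

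In complex II, *SDHB*, the iron-sulfur subunit, fell from 233.5, 218.9 and 239.6 to 178.4, 180.9 and 175.0 TPM (-0.48 ± 0.08, adjusted p = 6.90e-04). The membrane anchors *SDHC* (-0.58 ± 0.12) and *SDHD* (-0.60 ± 0.13) were also called. *SDHA* was not, at 120.2 to 131.8 against 120.3 to 128.2 TPM (-0.14 ± 0.06, adjusted p = 0.0902), so within this 4-subunit complex the flavoprotein gene stood apart from the other members.

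*UQCRB*, a quinone-binding protein of complex III, had the largest fold change of any member. It read 189.9, 131.7 and 186.6 TPM in Control KO and 98.0, 93.7 and 97.7 TPM in *TRA2B* KO. Control KO replicate 2 was low for this gene but still above every *TRA2B* KO library (-0.90 ± 0.20, adjusted p = 0.00353). *UQCRC1*, a core protein of the complex, went from 177.4, 178.6 and 181.4 to 125.9, 143.4 and 135.9 TPM (-0.52 ± 0.08, adjusted p = 4.29e-04), and *UQCRFS1* fell by 0.64 log2 units (adjusted p = 0.00229). *UQCRC2*, the partner of *UQCRC1*, was the member of complex III that was not called (-0.24 ± 0.10, adjusted p = 0.0869).

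Complex IV was split. *COX4I1*, the subunit through which ATP is known to regulate the enzyme (chr16:85798633-85807068, plus strand, GRCh38), fell from 412.9, 381.3 and 392.3 TPM to 267.1, 274.9 and 286.7 TPM with no overlap (-0.63 ± 0.10, adjusted p = 4.39e-04). *COX5A* (-0.41 ± 0.10, adjusted p = 0.00531) and *COX5B* (-0.28 ± 0.10, adjusted p = 0.0393) fell too, as did *COX6C*, *COX7C* and *COX8A*. The call of *COX5B* was lost under 9 of 17 alternatives, with log2 fold changes from -0.36 to -0.02 and adjusted p from 0.0149 to 0.795. *COX6A1*, the highest member in this line, was not called and read 1066 to 1221 against 1338 to 1385 TPM (0.11 ± 0.05, adjusted p = 0.115). *COX7B* read 15.0 to 17.5 against 19.3 to 22.5 TPM (0.28 ± 0.17, adjusted p = 0.224), and it had the highest log2 fold change of the 76.

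In ATP synthase, the catalytic *ATP5B* went from 534.1, 519.8 and 564.9 to 427.9, 441.2 and 435.7 TPM (-0.42 ± 0.08, adjusted p = 0.00162). *ATP5A1*, the alpha subunit, fell by 0.49 ± 0.10 (adjusted p = 0.00178). *ATP5J*, a stalk subunit, had a larger change, from 149 to 88.3 TPM on average (-0.86 ± 0.15, adjusted p = 6.14e-04), and the *ATP5J* values of 137.4 to 158.8 and 83.9 to 93.1 TPM did not overlap. The 3 genes for the same c-ring protein changed to different degrees, with -0.28 for *ATP5G1*, -0.53 for *ATP5G2* and -0.69 for *ATP5G3*, all called. *ATP5I* was the tested ATP synthase gene that was not called (-0.48 ± 0.23, adjusted p = 0.104).

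**Figure D3:**
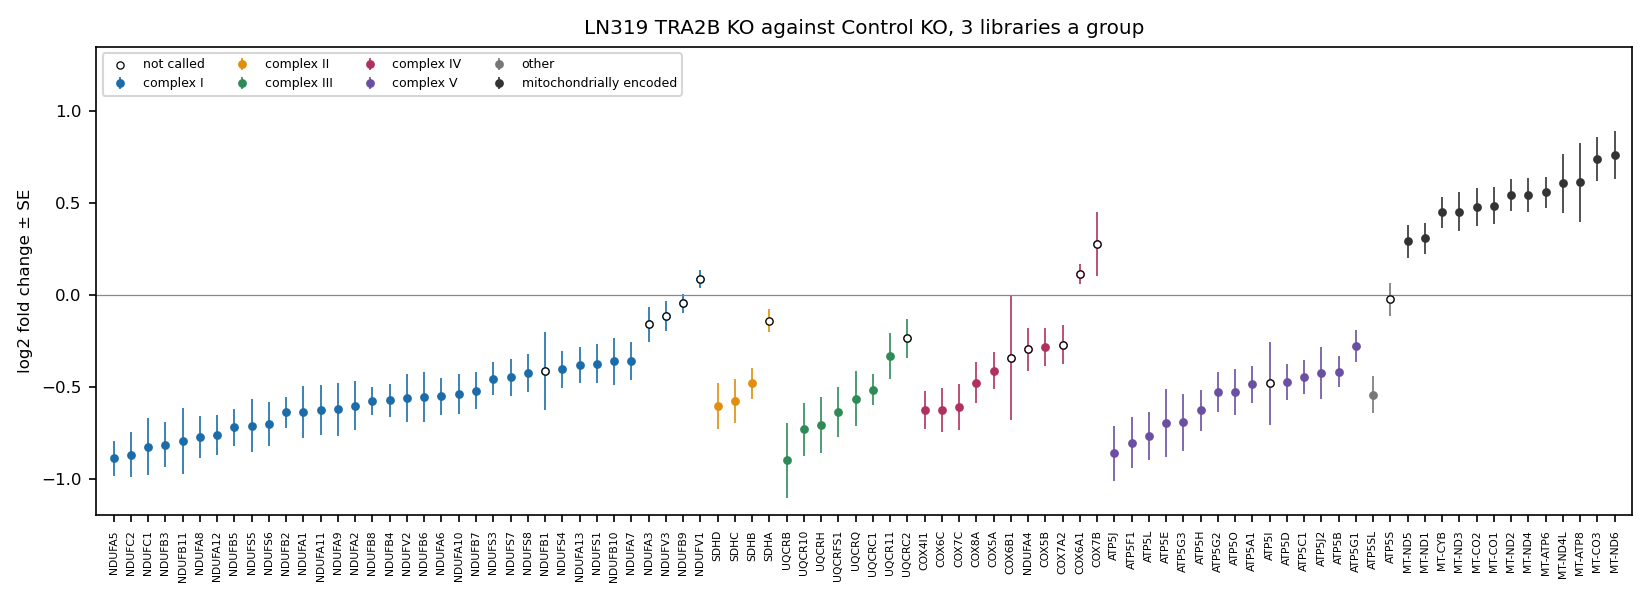
The log2 fold change ± SE of the tested members (all but 1), by complex, and of the 13 mitochondrially encoded genes in LN319 *TRA2B* KO against Control KO (3 libraries a group), with open circles for genes not called. Called members lie between -0.90 and -0.28, and the mitochondrially encoded genes lie between 0.29 and 0.76.

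The 13 respiratory chain genes of mitochondrial DNA went the other way in LN319 *TRA2B* KO. All 13 were called higher (median 0.54), for example *MT-CO3* from 12590 to 22710 TPM (0.74 ± 0.12) and *MT-ATP6* from 6489 to 10310 TPM (0.56 ± 0.08). Their share of a library was 12.1 to 12.8% in Control KO and 18.3 to 20.6% in *TRA2B* KO, without overlap. With quantile normalization in place of the scaling, 3 of the 13 were higher and 1 lower, so the count of mitochondrially encoded genes depends on the normalization. The fall of the nuclear members was present under every scaling tried. The scaling shifts the median of all genes, which was 0.12 for the values as deposited and 0.24 with the mitochondrially encoded genes removed. Relative to the median of all genes, the members lay at -0.55 in the reported fit, -0.55 as deposited, -0.55 with the mitochondrially encoded genes removed, and -0.33 after quantile normalization.

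The fall was not limited to the respiratory chain. In the same comparison 66 of 78 mitoribosomal protein genes were lower (median -0.53), as were 81 of 84 cytosolic ribosomal protein genes (-0.77), 35 of 36 proteasome subunits (-0.56) and 14 of 15 glycolytic enzymes (-0.64). The cytosolic ribosomal protein genes took up 7.95 to 8.66% of TPM in Control KO and 5.24 to 5.52% in *TRA2B* KO. Their part in the result on the respiratory chain was not tested. The members were lower in each class of transcript length, with medians of -0.53 in the 43 members under 1000 bases, -0.50 in 16 of 1000 to 2000 bases and -0.62 in 17 over 2000 bases, where all genes had 0.13, -0.18 and -0.03. Among assembly factors, the proteins that build the complexes without staying in them, 28 of 50 were lower and 7 higher (median -0.35). *PET117* (-0.85) and *COX20* (-0.77), which act in complex IV assembly, fell, while *NDUFAF7*, a methyltransferase for complex I, rose by 0.65 from 27.4 to 46.3 TPM. The TCA cycle had 8 of 13 genes lower, with *CS*, citrate synthase, at -0.35. Of 18 regulators of mitochondrial genes 4 were lower, among them *TFAM* (-0.50), which packages and transcribes mitochondrial DNA, *TFB2M* (-0.48) and *GABPA* (-0.32), and *PPARGC1B* and *SP1* were higher (0.99 and 0.20). *COX7A2L* was the 1 called gene of the 3 tested in a list of subunit isoforms and related genes (-0.58).

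*TRA2A* KO of the same line gave no such pattern. In LN319 *TRA2A* KO 1 member was higher (against 6.82% of all genes) and none was lower (against 7.44%, with 2 members lower at an unadjusted p under 0.05), with a median of 0.06. The called gene was *NDUFB9*, a membrane arm subunit, with 417.0, 420.7 and 384.3 TPM in Control KO and 479.2, 490.7 and 480.0 TPM in *TRA2A* KO (0.29 ± 0.05, adjusted p = 0.00382). *NDUFA5* read 32.6 to 38.2 TPM there (-0.16 ± 0.09, adjusted p = 0.286). A direct comparison of the knockouts, added after the data were seen and sharing the *TRA2B* KO libraries with the comparison above, had 66 members lower in *TRA2B* KO than in *TRA2A* KO (against 26.1% of all genes) and 2 higher (against 21.0%), with a median of -0.58. *NDUFB2* was at 208.3, 234.1 and 220.9 TPM in *TRA2A* KO and at 132.4, 146.8 and 138.0 TPM in *TRA2B* KO (-0.81 ± 0.09, adjusted p = 1.28e-05), *NDUFA8* at -0.92 ± 0.12 and *UQCRB* at -1.01 ± 0.20. *NDUFV1* was among the higher ones (0.17 ± 0.05, adjusted p = 0.0113).

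LN229 *TRA2B* KO, in which less *TRA2B* RNA was lost, gave no called member in limma, where 0.346% of all genes were lower and 0.211% higher. At an unadjusted p under 0.05, for which no share of all genes was taken, 11 members were lower and 1 higher. The median was -0.07. *COX4I1* read 626.0 to 692.7 TPM in Control KO and 596.9 to 650.9 TPM in *TRA2B* KO, so the groups overlapped (-0.15 ± 0.08, adjusted p = 0.272). *UQCRB* read 140.6 to 191.5 against 160.5 to 175.5 TPM. The difference between the lines' responses was tested, in a comparison also added after the data were seen: 43 members had a lower response in LN319 than in LN229 (against 13.3% of 16426 genes kept in both) and 1, *COX6A1*, a higher one (0.33 ± 0.11, adjusted p = 0.0364, against 6.76%). The median difference was -0.47, and *NDUFA5* had the lowest p of the members (-0.78 ± 0.15, adjusted p = 0.00104). The count of 44 was 28 without LN229 Luc Control KO replicate 3 and 29 without LN229 Luc *TRA2B* KO replicate 1.

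**Figure D4:**
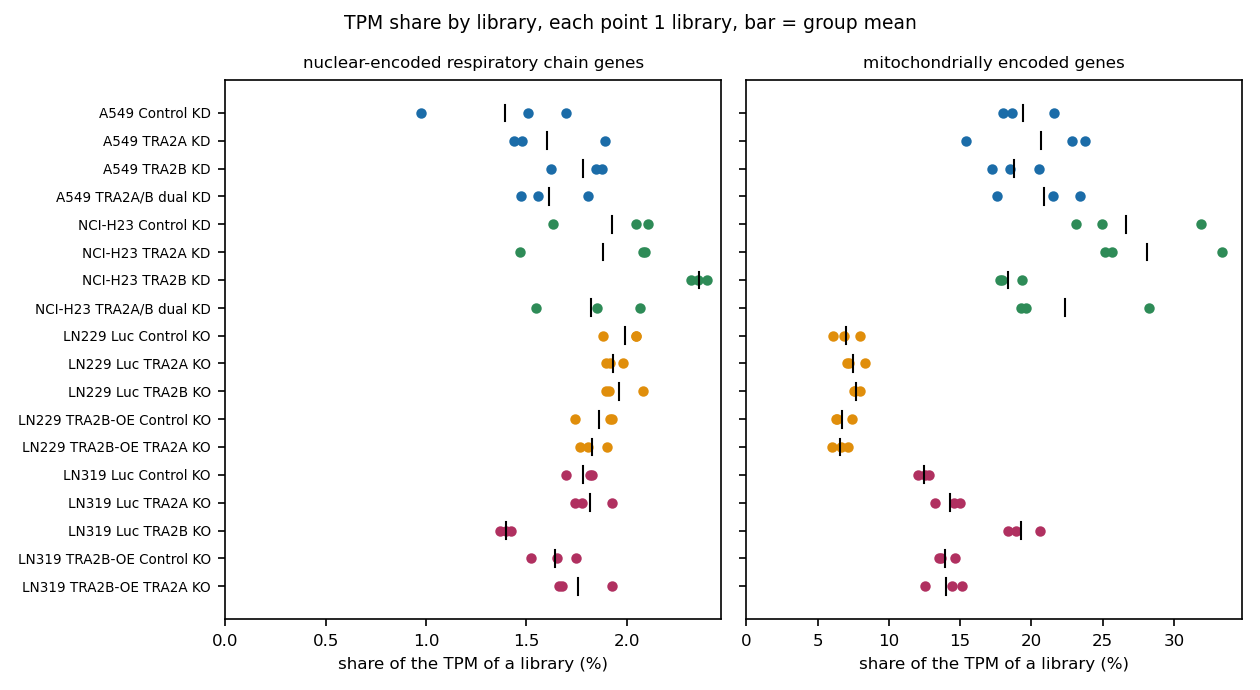
Share of each library's TPM taken by the 78 nuclear-encoded genes (left) and by the 13 mitochondrially encoded genes (right), each point being 1 library and the bar the group mean. LN319 *TRA2B* KO had 1.37 to 1.42% of nuclear-encoded and 18.3 to 20.6% of mitochondrially encoded TPM, and A549 Control KD replicate 3 had the lowest nuclear-encoded share of all libraries (0.973%).

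In NCI-H23 *TRA2A/B* DKD, the lower genes were 13 of 36 in complex I (median -0.20), 2 of 4 in complex II (-0.24), 2 of 8 in complex III (-0.18), 1 of 11 in complex IV (-0.25) and 6 of 15 in complex V (-0.29), plus *ATP5SL*. *NDUFA10* had the smallest p. Its level was 105.6, 117.6 and 115.5 TPM in Control KD and 77.0, 69.2 and 75.7 TPM in the DKD, with no overlap (-0.77 ± 0.05, adjusted p = 1.23e-06). It read 104.8 to 116.5 TPM in *TRA2A* KD and 136.4 to 142.9 TPM in *TRA2B* KD, and was called in neither. *NDUFA5* read 49.0, 46.2 and 63.1 TPM in Control KD and 33.0, 29.6 and 35.2 TPM in the DKD (-0.84 ± 0.11, adjusted p = 1.02e-04), which was the largest fall among the members.

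*ATP5D*, the delta subunit of ATP synthase (chr19:1241746-1244825, plus strand, GRCh38), went from 167.2, 224.2 and 216.1 to 135.2, 116.4 and 129.3 TPM (-0.82 ± 0.10, adjusted p = 8.14e-05). The gamma subunit *ATP5C1*, with 188.0 to 228.3 against 155.7 to 169.7 TPM, also did not overlap (-0.52 ± 0.08, adjusted p = 2.54e-04). The catalytic subunits were not called, with -0.09 ± 0.05 for both *ATP5A1* (adjusted p = 0.189) and *ATP5B* (adjusted p = 0.213). Within complex I, *NDUFV1* (-0.34), *NDUFB10* (-0.47), *NDUFB7* (-0.47) and *NDUFB4* (-0.60) fell, with adjusted p between 4.76e-04 and 0.00374, although *NDUFV1*, *NDUFB7* and *NDUFB4* overlapped with Control KD in TPM. *UQCRH*, the hinge protein of complex III, fell by 0.48 (736.0 to 888.3 against 613.3 to 731.8 TPM, adjusted p = 0.00215). *SDHA* (-0.37), *SDHB* (-0.31), *COX4I1* (-0.52) and *UQCRFS1* (-0.28, lost under 9 of 17 alternatives) were called as well, and *UQCRC1*, *COX5A* and *COX5B* were not. Of the 27 called members, 10 had groups without overlap in TPM, a count with no share of all genes beside it. The count depended on the scaling. With the values as deposited the calls were 3 higher and 8 lower, after quantile normalization 6 and 16, and with the mitochondrially encoded genes removed 6 and 22. Shares of all genes under these settings are not given here, so the counts are not set against a background. After removal of the trend with transcript length and GC content the calls were 1 and 56, where 24.3% of all genes were lower.

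*NDUFS1* and *COX7B* were higher in the NCI-H23 DKD. *NDUFS1* read 69.2, 75.0 and 74.2 TPM in Control KD and 87.5, 94.2 and 99.6 TPM in the DKD (0.21 ± 0.05, adjusted p = 0.00896), while the single knockdowns, at 69.6 to 74.4 TPM, lay in the control range. *COX7B* (chrX:77899440-77907376, plus strand, GRCh38) read 11.1, 12.4 and 19.3 TPM in Control KD and 37.8, 22.2 and 30.5 TPM in the DKD (0.93 ± 0.29, adjusted p = 0.0232). Its call was lost under 5 of 17 alternatives, and that of *NDUFS1* under 3. *COX7B* was already at 16.8 to 25.8 TPM in *TRA2A* KD and 17.9 to 37.5 TPM in *TRA2B* KD, neither of which was called.

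**Figure D5:**
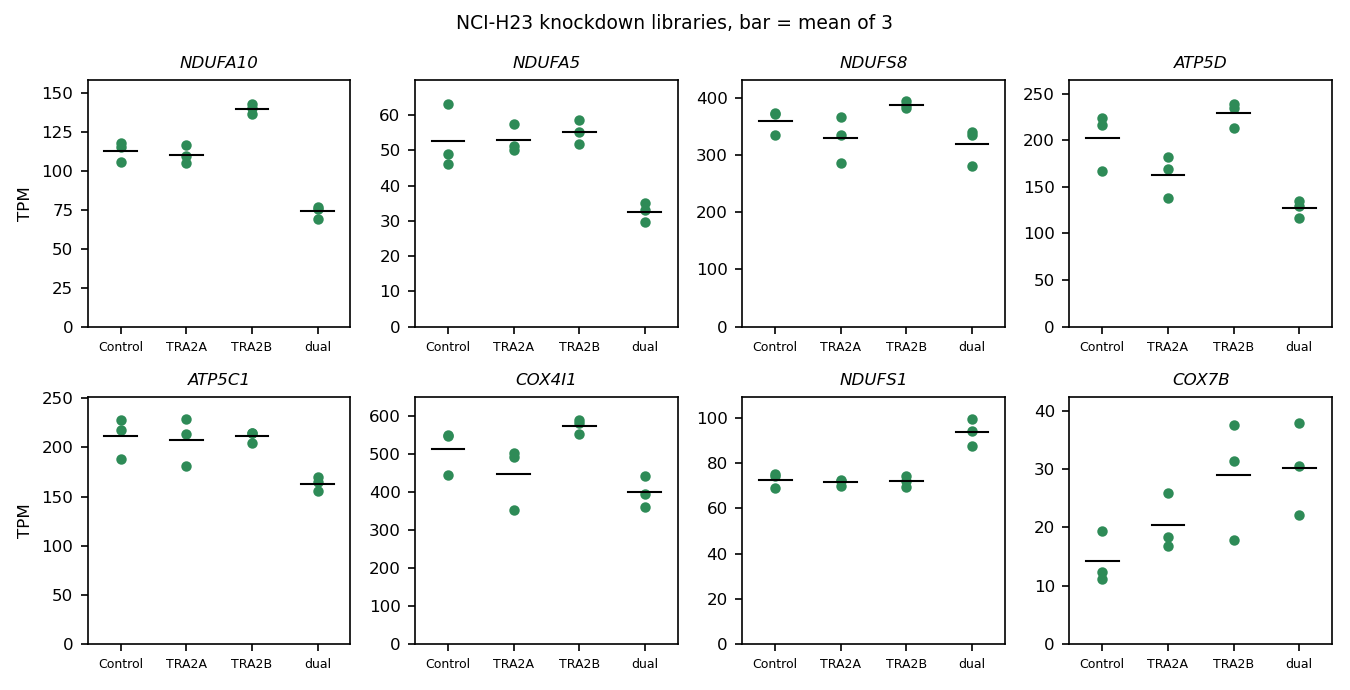
TPM of 8 members in the 12 NCI-H23 libraries, each point being 1 library and the bar the mean of 3, with axes from 0. *NDUFA10*, *NDUFA5*, *ATP5D* and *ATP5C1* are lowest in the DKD without overlap with Control KD, *NDUFS8* overlaps, and *NDUFS1* is highest in the DKD at 87.5 to 99.6 TPM.

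The single knockdowns of NCI-H23 called no member in limma. In *TRA2A* KD 0.374% of all genes were higher and 0.601% lower, and 1 member was higher and 4 lower at an unadjusted p under 0.05. In *TRA2B* KD 0.160% of all genes were higher and 0.0368% lower, and 8 members were higher and 2 lower at an unadjusted p under 0.05. In TPM the *TRA2B* KD libraries lay above all Control KD libraries for 47 members and below all of them for 2. Overlap was not counted over all genes, so these counts have no background share beside them. The member shares were 2.32 to 2.40% against 1.63 to 2.11% of TPM, and the median was 0.16. The mitochondrially encoded share moved the opposite way, at 17.8 to 19.3% against 23.1 to 31.9%, and with those genes removed the members' median was 0.12. The difference between the DKD and the sum of the single responses was called lower for 13 members (against 12.8% of all genes) and higher for 1 (against 8.23%). *NDUFA10* was the clearest, with a log2 difference of -0.94 ± 0.07 (adjusted p = 1.83e-05), and *NDUFS1* the higher one (0.34 ± 0.08, adjusted p = 0.00868). Without *TRA2A* KD replicate 2, which had the highest mitochondrially encoded share in the line (33.4%), the difference was called for 43 members, 42 of them lower, where 15.1% of all genes were lower and 9.39% higher.

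Of the 25 members lower in the NCI-H23 DKD, 22 were also lower in LN319 *TRA2B* KO, which is 88% of the former and 36.1% of the latter, where 80.3% of all tested members were lower in LN319 *TRA2B* KO, so the overlap is near the share of the members at large. *NDUFV1*, *NDUFV3* and *SDHA* were the 3 that were not. *NDUFA5*, *NDUFC2*, *COX4I1*, *SDHB*, *UQCRH*, *ATP5C1* and *ATP5D* are among the 22. Members of other lists moved in the NCI-H23 DKD in both directions: 32 of 78 mitoribosomal genes were lower and 3 higher, 17 of 50 assembly factors were lower and 5 higher, and 5 of 13 TCA cycle genes were lower. Of the latter *CS* fell from 155 to 69.5 TPM (-1.31 ± 0.07) and *IDH3B* from 98.5 to 66.4 TPM (-0.72). *COX17*, a copper chaperone of complex IV, fell by 1.12, *TIMMDC1*, a complex I assembly factor, by 0.72, and *COX19*, another complex IV chaperone, rose by 1.43 from 7.76 to 23.2 TPM. Glycolysis had 13 of 15 genes lower and the proteasome 25 of 37, whereas 18 of 84 cytosolic ribosomal protein genes were lower and 6 higher. Of the mitochondrially encoded genes 7 of 13 were lower (median -0.49). Of 17 regulators 5 were lower and 2 higher, *GABPB2* (0.59) and *NRF1* (0.43), and *COX7A2L* rose by 0.45.

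In A549 *TRA2A/B* DKD the members called lower were *NDUFS8*, *NDUFV3* and *UQCRC1*. *NDUFS8*, an iron-sulfur subunit of complex I (chr11:68030617-68036644, plus strand, GRCh38), read 273.5, 291.4 and 265.7 TPM in Control KD and 187.9, 181.4 and 218.4 TPM in the DKD (-0.58 ± 0.11, adjusted p = 0.00255), and both single knockdowns (253.2 to 298.2 TPM) stayed above the DKD. *NDUFV3* read 17.8, 20.0 and 33.3 TPM against 13.2, 14.7 and 14.9 TPM (-0.76 ± 0.16, adjusted p = 0.00458), where the 33.3 TPM is Control KD replicate 3. *UQCRC1* overlapped between groups (126.0 to 146.2 against 138.2 to 174.5 TPM, -0.25 ± 0.08, adjusted p = 0.0422), and its call was lost under 13 of 17 alternatives (adjusted p from 0.0225 to 0.362). *NDUFS8* was lower in all 3 comparisons, this one, the NCI-H23 DKD (-0.33, adjusted p = 0.00452) and LN319 *TRA2B* KO (-0.43, adjusted p = 0.00507), and *NDUFV3* was lower in both DKDs.

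The member count in A549 depends on Control KD replicate 3. Without it, 18 members were lower in the DKD, where 20.2% of all genes were lower, and the members' median went from 0.10 to -0.16. After removal of the trend with transcript length and GC content, 20 members were lower, where 20.9% of all genes were. With the values as deposited, quantile normalization or the mitochondrially encoded genes removed, the calls were 3 higher and 2 lower, 8 higher and 2 lower, and 6 higher and 2 lower. Shares of all genes under these settings are not given here. The difference from the single knockdowns was called for 3 members, all lower (against 8.89% of all genes; 5.84% were higher): *NDUFS8* (-0.75 ± 0.16, adjusted p = 0.0100), *UQCRH* (-0.86 ± 0.26, adjusted p = 0.0471) and *NDUFV1* (-0.39 ± 0.12, adjusted p = 0.0479), and without that library for 17, all lower (against 13.0% of all genes), and without Control KD replicate 2 for 14, all lower (against 11.5%). Among other lists of the A549 DKD, glycolysis had 11 of 14 genes lower, the proteasome 12 of 37 with 1 higher, mitoribosomal proteins 9 of 78 with 1 higher, the TCA cycle 3 of 13 (*CS* at -1.14 ± 0.07, from 172 to 81.7 TPM) and cytosolic ribosomal proteins 3 of 85 with 1 higher. Assembly factors were higher in 7 and lower in 3 of 50, regulators higher in 4 and lower in 1 of 17, *POLRMT*, the mitochondrial RNA polymerase (-0.61). Of the mitochondrially encoded genes, *MT-ND6* was called (1.38 ± 0.24), and of the 3 tested in the list of isoforms and related genes none.

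The A549 single knockdowns called no member in limma, where 0.0488% of all genes were higher and 0.158% lower in *TRA2A* KD and 0.280% and 0.0610% in *TRA2B* KD. Yet 71 of 76 members had a positive log2 fold change in each, with medians of 0.35 and 0.40, and 1 and 19 members were higher at an unadjusted p under 0.05. Both comparisons share the Control KD libraries, and without replicate 3 the medians were 0.04 and 0.09. *COX8A*, for example, read 553.0, 639.0 and 188.9 TPM in Control KD, and *COX4I1* read 427.9, 493.9 and 240.4 TPM, so in both genes replicate 3 alone was low. The DKD responses of the lung lines were compared directly in a comparison added after the data were seen: 1 member, *NDUFA5*, had a lower response in NCI-H23 than in A549 (-0.83 ± 0.22, adjusted p = 0.0160, against 6.77% of 14450 genes) and none a higher one (against 5.39%). The median difference was -0.36, and without A549 Control KD replicate 3 it was -0.07, with 2 members called, 1 in each direction. Without A549 Control KD replicate 1, A549 Control KD replicate 2 or NCI-H23 DKD replicate 1 the count was 2, 7 or 3.

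Of the remaining glioma comparisons, LN229 *TRA2A* KO called no member in limma (1.96% of all genes higher, 1.83% lower, 2 members higher and 3 lower at an unadjusted p under 0.05). LN229 TRA2B-OE against Luc called none either (0.725% higher, 0.303% lower, 8 members lower at an unadjusted p under 0.05). In LN229 TRA2B-OE *TRA2A* KO, 1 member, *ATP5G3*, was lower (against 3.88% of genes, with 2.17% higher). It read 233.5, 227.3 and 237.3 TPM in TRA2B-OE Control KO and 200.3, 189.7 and 199.0 TPM in TRA2B-OE *TRA2A* KO (-0.28 ± 0.07, adjusted p = 0.0296). Its call was lost under 8 of 17 alternatives. At an unadjusted p under 0.05, 14 members were lower and 3 higher in that comparison. In LN319, TRA2B-OE called 2 members lower against Luc (2.16% of all genes were lower and 2.16% higher), *ATP5G1* (455.1, 444.1 and 455.8 against 355.5, 352.8 and 410.6 TPM, -0.37 ± 0.09, adjusted p = 0.0378) and *NDUFB8* (-0.31 ± 0.08, adjusted p = 0.0429). Each of these 2 calls was lost under 7 of 17 alternatives. Both genes were also lower in LN319 *TRA2B* KO, a comparison that shares the Luc Control KO libraries. In LN319 TRA2B-OE, 71 of 76 members had a negative log2 fold change, and 23 were lower and 0 higher at an unadjusted p under 0.05. The medians of complexes I to V ran from -0.29 to -0.18 there. LN319 TRA2B-OE *TRA2A* KO had 2 members higher (against 1.48%; 1.29% of genes were lower), *NDUFB9* (461.6, 433.7 and 427.9 against 529.2, 516.2 and 527.6 TPM, 0.31 ± 0.05, adjusted p = 0.0149) and *COX6A1* (0.24 ± 0.05, adjusted p = 0.0383). The call of *COX6A1* was lost under 13 of 17 alternatives (adjusted p from 0.035 to 0.479), and that of *NDUFB9* under 4. At an unadjusted p under 0.05, 7 members were higher and 0 lower in that comparison. *NDUFB9* was thus the gene called after *TRA2A* KO in LN319 with and without TRA2B-OE, and its response did not differ detectably between them (difference 0.02 ± 0.07, adjusted p = 0.967). No member's response to *TRA2A* KO was called different between TRA2B-OE and Luc in limma, in LN229 (0% of all genes in either direction, with 9 members lower at an unadjusted p under 0.05) or in LN319 (0.0207% of genes higher and 0% lower, with 0 members at an unadjusted p under 0.05). A panel of 11 catalytic or core subunits (*NDUFS1*, *NDUFV1*, *SDHA*, *SDHB*, *UQCRC1*, *UQCRFS1*, *COX4I1*, *COX5A*, *COX5B*, *ATP5A1* and *ATP5B*) had no called gene in any of these glioma comparisons. Its log2 fold changes ran from -0.07 (*NDUFV1*) to 0.14 (*UQCRFS1*) in LN229 *TRA2A* KO and from -0.30 (*UQCRC1*) to -0.01 (*COX5B*) in LN229 *TRA2B* KO. In LN319 they ran from -0.09 (*NDUFV1*) to 0.20 (*ATP5B*) in *TRA2A* KO and from -0.24 (*COX5B*) to 0.03 (*SDHA*) in TRA2B-OE. In LN319 *TRA2B* KO, by comparison, 9 of the 11 were lower.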

How the data were processed

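RNA was measured in 54 libraries of 4 lines by strand-specific sequencing of polyadenylated RNA, with 18 groups of 3 set by the sample labels. The authors deposited gene-level TPM values, 1 table a line, made with kallisto 0.48.0 per the study's methods. The submitters' processing notes also name STAR 2.7.3 and the build GRCh38. Deposited TPM carry no read depth. The study's methods give Gencode release 34, but 11883 names begin with RP11, an older style, and 28 names look like dates, so the annotation behind the tables is uncertain. No library pair was identical.

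Library scaling used TMM without weights (trimming 30% of ratios and 5% of abundances). A gene entered the test of a line when 4 or more of its libraries reached 1 TPM, and log2(TPM + 0.1) was tested with limma 3.58.1 (R 4.3.3, trend) on all groups of a line. Fold changes are on that scale, which understates the change of low genes. The threshold was an adjusted p of 0.05 over all genes of a comparison. Overlap of groups was read from TPM as deposited and was not counted over all genes. Plots were drawn with matplotlib 3.10.9, and tables were built with pandas 2.3.3 (Python 3.11.15, numpy 2.4.6). The procedure was tested on simulated data. In each line 50 genes were changed at each size, in the *TRA2A* KD or Luc *TRA2A* KO group only, with noise drawn independently for each value. Comparisons in which many genes change, and shifts of a whole library, were not simulated, so the shares do not carry over to them. Of simulated log2 changes of -0.5 and 0.5, the procedure called 10 and 22% in A549, 48 and 54% in NCI-H23, 48 and 48% in LN229 and 56 and 54% in LN319. A member that was not called is therefore not shown to be unchanged, least of all in A549. The study's count-based test was not used, since the values are not counts.

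The members, gene lists and tests were chosen with earlier results of these data known. The comparisons of the LN319 knockouts with each other and of responses between lines, and the alternative without mitochondrially encoded genes, were added after the data were seen. The rule for naming took the called members of smallest p (10 in each direction for a dual knockdown, 5 otherwise), a panel of core subunits (1 gene is not reported here), members called in both dual knockdowns and the member of largest change, and from other lists the 3 called genes of smallest p in a dual knockdown. Other members and list genes were named after their values were seen. Coordinates and transcript lengths came from Gencode release 44 (GRCh38) and promoters from RefSeq (GRCh38.p14). Alternatives were other pseudocounts, filters and scalings, a replicate block, removal of a spline trend (4 degrees of freedom) with length and GC content, fits on the compared groups only, and leaving out each library.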

Additional observations from a re-analysis of the deposited data

Results flagged for a closer look

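In NCI-H23 the response to the dual knockdown differed from the sum of the single responses for 14 members by the interaction term. Of these 13 were lower (17.1% of members, against 12.8% of all genes) and 1 higher (1.32%, against 8.23%). *NDUFA10* led (-0.94 ± 0.07, limma adjusted p = 1.83e-05). In A549 the same term was called for 3 members, all lower (3.95%, against 8.89% of all genes), led by *NDUFS8* (-0.75 ± 0.16, adjusted p = 0.0100). The response to *TRA2B* KO differed between LN319 and LN229 for 44 members. Of these 43 were lower in LN319 (56.6%, against 13.3% of genes) and *COX6A1* was higher (1.32%, against 6.76%). The response to the dual knockdown differed between NCI-H23 and A549 for 1 member, *NDUFA5* (-0.83 ± 0.22, adjusted p = 0.0160). It was lower in NCI-H23 (1.32%, against 6.77% of genes). With all libraries kept, the members' share in A549 and between the lung lines was thus below that of all genes. In A549 this depended on the controls. Without Control KD replicate 2 or without replicate 3, the members' share called lower was above that of all genes. The A549 count ran from 1 to 17 with a library left out.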

How the results depend on the processing

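The 61 members lower in LN319 *TRA2B* KO were 57 to 65 called members under 11 alternatives and 54 to 64 with a library left out, and the direct comparison with *TRA2A* KO gave 56 to 71 and 57 to 66, against 68. The difference between LN319 and LN229 gave 41 to 50 under the alternatives and 28 to 49 with a library left out, against 44. Of 56 calls of named genes, each a gene in 1 comparison, 36 were kept under every alternative, 20 were lost under at least 1, and *SDHA* in the direct comparison of the LN319 knockouts changed sign, to 0.0319 with the mitochondrially encoded genes removed.

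Other counts of called members moved more, and the cause was not tested. The counts in this part stand without the shares of all genes under the same settings, so they show only how far a count moved. The A549 DKD (3) gave 5 with TPM as deposited, 10 with quantile normalization, 8 with mitochondrially encoded genes removed and 20 with the length and GC trend removed, and 2 to 18 with a library left out (18 without Control KD replicate 3). Its difference from the single knockdowns (3) gave 1 with no filter, 1 as deposited, 1 with quantile normalization, 1 with mitochondrially encoded genes removed and 24 with the trend removed, and 1 to 17 with a library left out (14 without Control KD replicate 2, 17 without replicate 3). The NCI-H23 DKD (27) gave 11 as deposited and 57 with the trend removed, and 18 to 27 with a library left out. Its difference from the single knockdowns (14) gave 9 with no filter, 7 as deposited, 9 with quantile normalization and 37 with the trend removed, and 8 to 43 with a library left out (43 without *TRA2A* KD replicate 2). The DKD difference between the lung lines (1) gave 5 with quantile normalization, 5 with mitochondrially encoded genes removed and 8 with the trend removed, and 1 to 7 with a library left out.

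In the glioma lines, LN229 TRA2B-OE (0) gave 1 with the trend removed. LN229 TRA2B-OE *TRA2A* KO (1) gave 2 with a pseudocount of 0.5 or 1, 0 with no filter, 4 at a minimum of 5 TPM, 3 as deposited, 5 with quantile normalization, 3 with mitochondrially encoded genes removed, 3 with the trend removed and 0 with only the groups compared. LN319 *TRA2A* KO (1) gave 3 as deposited, 5 with quantile normalization, 3 with mitochondrially encoded genes removed and 2 with the trend removed. LN319 TRA2B-OE (2) gave 0 with no filter and 0 with only the groups compared. LN319 TRA2B-OE *TRA2A* KO (2) gave 1 with no filter, as deposited, with quantile normalization, with mitochondrially encoded genes removed or with the trend removed, and 0 with only the groups compared. With a library left out, the ranges were 0 to 1 for LN229 *TRA2A* KO, 0 to 5 for LN229 *TRA2B* KO (5 without Luc Control KO replicate 1), 0 to 1 for LN229 TRA2B-OE *TRA2A* KO, 1 to 1 for LN319 *TRA2A* KO, 0 to 6 for LN319 TRA2B-OE (6 without TRA2B-OE Control KO replicate 3) and 0 to 1 for LN319 TRA2B-OE *TRA2A* KO.

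Replicate numbers showed little pairing of the libraries on average: deviations of libraries with the same number had median correlations of 0.0262 (A549), -0.0132 (NCI-H23), 0.0199 (LN229) and 0.021 (LN319). They were over 0.1 in 3 of 18, 1 of 18, 3 of 30 and 0 of 30 pairs. The highest was 0.212 in LN229, against 0.115 among other pairs there, and in A549 it was 0.13 against 0.152. Whether libraries of the same number share a culture or batch was not tested. With a replicate block, LN229 TRA2B-OE *TRA2A* KO gave 4 members, LN319 TRA2B-OE 10, LN319 *TRA2B* KO 65 and the NCI-H23 DKD 28. With the replicate block and the trend removed together, the counts were 20 (A549 DKD) and 21 (its difference from the single knockdowns), 56 and 35 (NCI-H23), 8 (difference of the lung lines), 1 (LN229 *TRA2A* KO), 2 (LN229 *TRA2B* KO), 1 (LN229 TRA2B-OE), 5 (LN229 TRA2B-OE *TRA2A* KO), 3 (LN319 *TRA2A* KO), 15 (LN319 TRA2B-OE) and 1 (LN319 TRA2B-OE *TRA2A* KO).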
